A study of Mus musculus with 6 samples.

Results

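Bone marrow-derived macrophages (BMMs), the cells from which osteoclasts form, carried lower mRNA levels of nearly the whole cholesterol synthesis pathway when rGDF11 was added to RANKL. The genes described here are 28 genes of cholesterol synthesis and of its control by SREBP. They form a fixed list of names, which was chosen with earlier results of these data known. Each was read through the probe set that the platform annotation pairs with that symbol alone, the brightest one over all 6 arrays where there were several. Of the 28 genes, 27 had such a probe set, out of 19938 genes on the array with a probe set of their own, and *Acat2*, a thiolase of the first step, was not analysed here. The BMMs came from the tibiae of 9-week-old mice and were expanded in M-CSF, on which macrophages depend for growth and survival. All 6 samples then spent 24 h in medium that held RANKL, the cytokine that turns BMMs into osteoclasts, at 50 ng per ml beside M-CSF at 100 ng per ml. The 3 samples called vehicle were labelled vehicle control and received no rGDF11. The 3 samples called GDF11 received rGDF11 at 100 ng per ml, a recombinant ligand of the TGF-β superfamily. No sample lacked RANKL, so every difference given is one between RANKL with and without rGDF11. The labels name biological replicates without stating whether each came from its own mouse or from pooled marrow. The p-values rest on the spread between these 3 and 3 samples. In limma, the main test used, that spread is drawn toward a value shared by all tested probe sets.

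Cells make cholesterol from acetyl-CoA through mevalonate, prenyl diphosphates, squalene and lanosterol. The genes of this route are switched on together by SREBP transcription factors, which are held in the endoplasmic reticulum as precursors by Scap and the Insig proteins while sterols are plentiful and are carried to the Golgi and cut loose when sterols run low. The cut SREBP enters the nucleus and binds sterol regulatory elements in promoters, usually next to sites for NF-Y or Sp1. In macrophages the pathway also feeds protein prenylation, on which the osteoclast cytoskeleton depends, and farnesyl diphosphate synthase is the target of the nitrogen-containing bisphosphonates. The arrays measured mRNA alone, so the amount of cut SREBP protein and of cholesterol was not measured.

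RefSeq promoter windows of build GRCm38.p6, 250 bases before each annotated start, were given for 24 of the 28 genes. The letters TCACNCCA, the core of a sterol regulatory element, were searched on both strands and were found for 3 of the 24 genes, *Hmgcs1*, *Srebf2* and *Msmo1*, against 4.20% of all 27025 genes with a window and 3.96% of the 8113 genes brighter than the median gene on these arrays. The letters CCAAT, to which NF-Y binds, stood in the windows of 21 of the 24 genes, against 37.5% of all genes and 40.6% of the brighter ones. GGGCGG, the Sp1 letters, stood in 22 of the 24, against 35.4% and 65.3%. TCACGTGA, the E-box that SREBP also binds, was found in 0 of the 24 windows and in 0.907% of all genes. The spelling of the sterol element was settled after other spellings had been tried, genes with several starts were counted if any window matched, and a match is a description of letters, not of a bound site. The windows shown are those of the 3 genes with a TCACNCCA match, of *Acss2* and *Insig1*, which fell furthest among the 27, and of *Ggps1*, which did not pass the test. Capitals mark TCACNCCA and CCAAT on either strand, and each line runs 5′ to 3′ on the strand of the gene. TCACNCCA and CCAAT can share letters, and no such overlap occurred in these windows.
Hmgcs1, chr13:119690101-119690350 (plus strand): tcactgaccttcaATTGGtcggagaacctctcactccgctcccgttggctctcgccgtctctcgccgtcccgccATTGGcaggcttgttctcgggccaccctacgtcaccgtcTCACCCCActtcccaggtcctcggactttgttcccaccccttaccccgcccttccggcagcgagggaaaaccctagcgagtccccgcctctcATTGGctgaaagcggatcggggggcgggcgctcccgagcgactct
Msmo1, chr8:64733579-64733828 (minus strand): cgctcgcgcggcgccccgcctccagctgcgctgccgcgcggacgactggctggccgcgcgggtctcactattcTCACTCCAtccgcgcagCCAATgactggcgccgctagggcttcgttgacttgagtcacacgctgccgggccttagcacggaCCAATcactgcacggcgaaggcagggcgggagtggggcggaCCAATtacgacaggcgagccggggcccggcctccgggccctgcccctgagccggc
Srebf2, chr15:82147019-82147268 (plus strand): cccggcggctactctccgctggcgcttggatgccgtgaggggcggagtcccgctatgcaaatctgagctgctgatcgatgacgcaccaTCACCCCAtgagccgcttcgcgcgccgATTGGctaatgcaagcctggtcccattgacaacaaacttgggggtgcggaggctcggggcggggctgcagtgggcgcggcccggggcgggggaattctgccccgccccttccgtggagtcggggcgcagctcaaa
Acss2, chr2:155517793-155518042 (plus strand): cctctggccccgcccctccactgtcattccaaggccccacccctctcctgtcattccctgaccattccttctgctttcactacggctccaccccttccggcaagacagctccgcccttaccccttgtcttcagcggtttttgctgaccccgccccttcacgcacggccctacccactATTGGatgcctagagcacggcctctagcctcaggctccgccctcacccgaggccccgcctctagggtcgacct
Insig1, chr5:28071162-28071411 (plus strand): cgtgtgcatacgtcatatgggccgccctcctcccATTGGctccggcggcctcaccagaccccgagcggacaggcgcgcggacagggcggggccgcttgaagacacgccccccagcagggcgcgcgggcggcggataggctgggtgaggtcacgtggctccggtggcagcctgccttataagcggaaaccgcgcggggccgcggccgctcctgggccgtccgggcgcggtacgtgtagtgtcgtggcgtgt
Ggps1, chr13:14063489-14063738 (minus strand): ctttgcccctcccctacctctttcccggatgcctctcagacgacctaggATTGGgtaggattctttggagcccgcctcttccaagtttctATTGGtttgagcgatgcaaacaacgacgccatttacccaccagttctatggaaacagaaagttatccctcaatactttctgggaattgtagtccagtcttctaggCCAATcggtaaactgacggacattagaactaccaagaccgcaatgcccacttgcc

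The sterol element letters began 137 bases before the start of *Hmgcs1*, 162 before that of *Srebf2* and 177 before that of *Msmo1*. Of the 18 genes with a window that fell on the arrays, 17 held CCAAT and 3 held TCACNCCA. Of the other 6, *Acat2* included, 4 held CCAAT and 0 held TCACNCCA, so that CCAAT letters were common on both sides.

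Of the 27 measured genes, 22 were lower with rGDF11 at an adjusted p under 0.05, 0 were higher and 5 did not pass (limma's moderated test, Benjamini-Hochberg adjustment over 23410 probe sets). Over all 19938 genes, 9.13% were lower and 7.49% higher by the same rule. All 27 genes were brighter than the median gene, and among such genes 16.2% were lower and 12.5% higher. At an unadjusted p under 0.05 from limma, 24 of the 27 were lower and 0 higher. The methods' t-test, given the same Benjamini-Hochberg adjustment, called 18 lower and 0 higher at an adjusted p under 0.05. The share over all genes was not counted for either of these 2 rules. At a fold change of 1.5 with an unadjusted p under 0.01, the threshold of the study's methods, 13 were lower and 0 higher, where 3.06% of all genes were lower and 2.13% higher. The median log2 fold change of the 27 genes was −0.53, beside 0.03 over all genes and −0.01 over the brighter ones. Since the list was chosen with earlier results known, its counts and median are descriptions without a test of the list. In 24 of the 27 every GDF11 array read below every vehicle array, which was the case for 17.0% of all genes. For a single gene, an exact permutation test of 3 arrays against 3 cannot go below a two-sided p of 0.1. The values are levels in bulk RNA, in which fewer cells of a type and less RNA per cell cannot be told apart.

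As to the cells themselves, all 8 macrophage markers were brighter than the median gene, and 5 of them fell with rGDF11, so that the mean of the list went from between 11.32 and 11.35 on the vehicle arrays to between 10.84 and 10.92. Of 8 osteoclast precursor genes 6 rose, and the list mean went from between 7.86 and 7.90 to between 8.79 and 8.91. Markers were also read for 8 other cell types (B cell, T cell, neutrophil, erythroid, stromal and osteoblast, endothelial, megakaryocyte and dendritic cell). Of the 44 measured, 5 fell and 8 rose, where 9.13% of all genes were lower and 7.49% higher. *Cd79b* of B cells fell (log2 fold change −1.19), and the other 4 B cell markers did not pass. Of 4 megakaryocyte markers, *Pf4* of platelets (−1.10) and *Ppbp* fell and 2 did not pass. Of 8 neutrophil markers, *S100a8* (0.71) and *Ngp* rose, *Ngp* by more, and 6 did not pass. The neutrophil list mean went from between 6.22 and 6.28 to between 6.52 and 6.67, and the megakaryocyte list mean from between 7.44 and 7.53 to between 6.99 and 7.13. The dendritic cell list mean went from between 4.97 and 5.11 to between 5.22 and 5.48, the stromal and osteoblast mean from between 5.23 and 5.40 to between 5.48 and 5.53, and the endothelial mean from between 5.45 and 5.48 down to between 5.32 and 5.37. The B cell, T cell and erythroid list means overlapped between the groups and lay between 4.70 and 5.38. The array has no true zero, so no marker can be called absent. The part of such shifts in the fall of the cholesterol genes was not tested. Arrays of 1 group correlated at 0.997 to 0.998 across probe sets and arrays of different groups at 0.989 to 0.991, and array medians lay between 6.11 and 6.18.

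**Figure D1:**
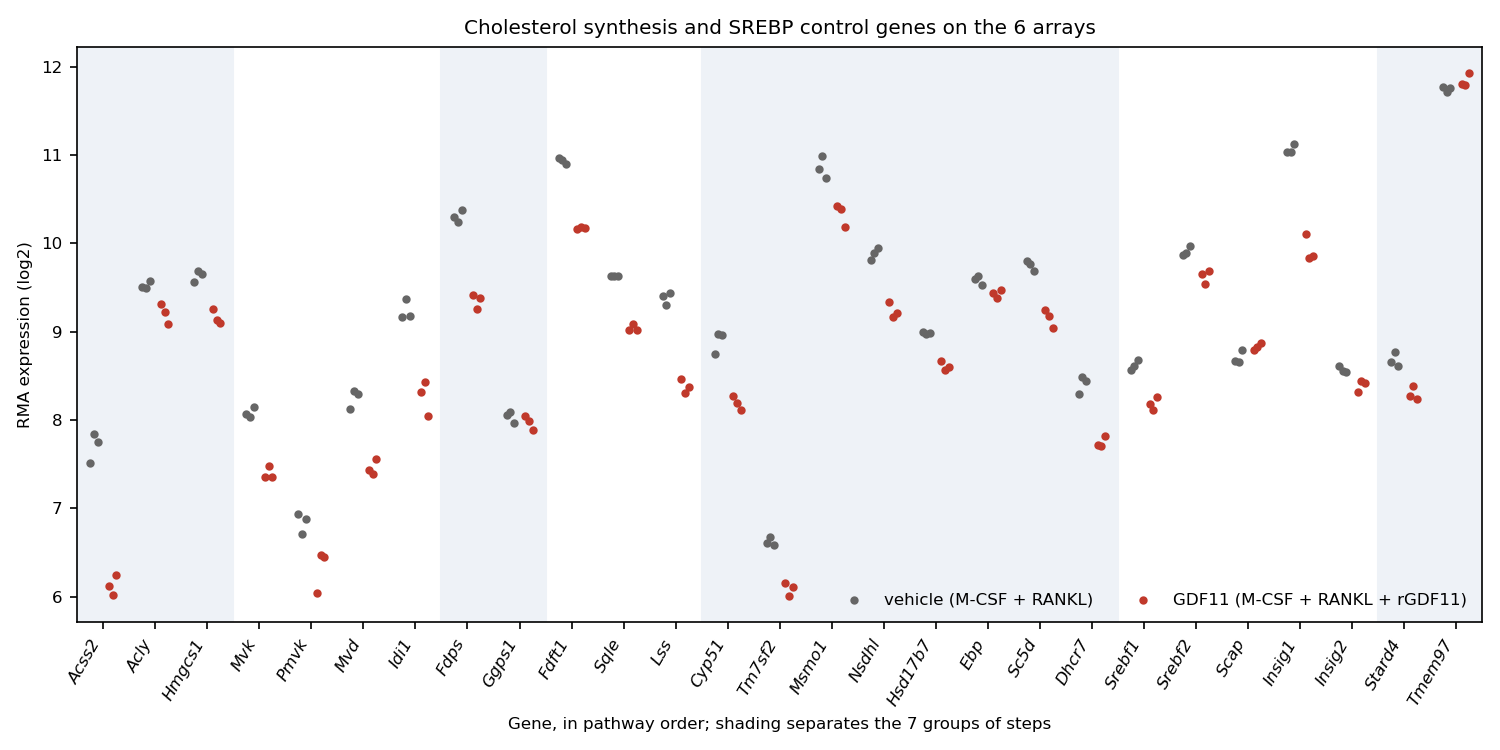
RMA expression (log2, vertical axis) of 27 genes of cholesterol synthesis and SREBP control, in pathway order, on 3 vehicle arrays (grey) and 3 GDF11 arrays (red), 1 point per array. In 24 genes all red points lie below all grey points; the points overlap in *Ggps1* and *Scap*, and in *Tmem97* the red points lie higher.

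The 3 measured genes that supply the first building blocks fell, by very different amounts. *Acss2*, which makes acetyl-CoA from acetate, had log2 levels of 7.51, 7.85 and 7.75 on the vehicle arrays and 6.12, 6.02 and 6.24 on the GDF11 arrays. The groups stood more than 1 log2 unit apart, and the 2.99-fold fall (log2 fold change −1.58, standard error 0.10, adjusted p = 5.6e-05) was the steepest of the 27 genes, with only 0.396% of all genes on the array falling further. *Acly*, which makes acetyl-CoA from citrate, read 9.51, 9.50 and 9.57 without and 9.31, 9.22 and 9.09 with rGDF11. Its groups also lay apart, but the step between them was small (log2 fold change −0.32, standard error 0.07, adjusted p = 0.0251). The call for *Acly* was lost without vehicle replicate 1 (adjusted p = 0.0595), 2 (0.0596) or 3 (0.0912) and without GDF11 replicate 2 (0.0579) or 3 (0.0682). *Hmgcs1*, the synthase that commits acetyl-CoA to the pathway and one of the 3 genes with the sterol element letters shown above, read 9.57, 9.69 and 9.66 against 9.26, 9.13 and 9.10, a 1.39-fold fall (log2 fold change −0.47, standard error 0.07, adjusted p = 0.0031).

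The 4 enzymes from mevalonate to isopentenyl and dimethylallyl diphosphate fell as well, with a median log2 fold change of −0.74. *Mvk*, mevalonate kinase, read 8.07, 8.04 and 8.15 without and 7.35, 7.48 and 7.35 with rGDF11 (log2 fold change −0.69, standard error 0.07, adjusted p = 0.000396). *Mvd*, the decarboxylase that makes isopentenyl diphosphate, read 8.13, 8.33 and 8.30 against 7.43, 7.39 and 7.56 (−0.79, standard error 0.08, adjusted p = 0.000472). Both genes showed a gap between the groups several times the spread inside them. *Idi1*, the isomerase of the last of these steps, went from 9.17, 9.38 and 9.18 to 8.31, 8.43 and 8.05, a 1.97-fold fall (log2 fold change −0.98, standard error 0.11, adjusted p = 0.000812). Its second probe set gave nearly the same change (−0.97), and whether that set reads another copy of the sequence was not tested. *Pmvk*, phosphomevalonate kinase, was the least even of the 27. Its GDF11 arrays read 6.05, 6.47 and 6.46 against 6.94, 6.71 and 6.88, so that GDF11 replicate 1 stood well below the other two. The log2 fold change was −0.52 with a standard error of 0.12 (adjusted p = 0.0267), and the call was lost without vehicle replicate 1 (adjusted p = 0.0814) or 3 (0.0974).

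At the fork of the pathway the branch enzymes differed. *Fdps*, farnesyl diphosphate synthase, fell 1.94-fold, from 10.30, 10.24 and 10.38 to 9.41, 9.26 and 9.39 (log2 fold change −0.96, standard error 0.07, adjusted p = 0.000106). *Ggps1*, which extends farnesyl diphosphate for the prenylation of proteins, read 8.05, 8.09 and 7.96 without and 8.04, 7.99 and 7.89 with rGDF11. These groups overlapped, and the 95% interval of the log2 fold change ran from −0.22 to 0.10 (adjusted p = 0.646). The difference between the 2 log2 fold changes, taken within each array, was −0.89 (standard error 0.10). The pair was picked with its values in view, so that difference is a description without a test.

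All 3 enzymes that turn farnesyl diphosphate into the first sterol fell, *Sqle* only just past the 1.5-fold mark. *Fdft1*, squalene synthase, read 10.97, 10.95 and 10.90 on the vehicle arrays and 10.16, 10.18 and 10.17 on the GDF11 arrays (log2 fold change −0.77, standard error 0.06, adjusted p = 0.000105). A second, dimmer probe set of *Fdft1* fell by 0.93 on the log2 scale, and whether it reads another copy of the sequence was not tested. *Sqle*, squalene epoxidase, which is often taken as a rate-limiting enzyme, varied least of the 27 genes on the vehicle arrays, with 9.63, 9.63 and 9.64 without and 9.02, 9.08 and 9.02 with rGDF11, and fell 1.51-fold (log2 fold change −0.59, adjusted p = 0.000377). *Lss*, which closes the rings to lanosterol, went from 9.40, 9.30 and 9.44 to 8.47, 8.31 and 8.38, a 1.99-fold fall (log2 fold change −0.99, standard error 0.07, adjusted p = 8.69e-05). Only *Acss2* and *Insig1* fell further among the 27 genes.

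Of the 8 genes between lanosterol and cholesterol, 7 fell and *Ebp* did not pass, with a median log2 fold change of −0.56. In all 8 every GDF11 array read below every vehicle array. *Cyp51*, lanosterol demethylase, read 8.75, 8.98 and 8.96 against 8.27, 8.20 and 8.12 and had the largest change of the 8 (log2 fold change −0.70, standard error 0.08, adjusted p = 0.00099). *Dhcr7*, the reductase of the final step in one route, read 8.29, 8.48 and 8.45 against 7.72, 7.71 and 7.82 (−0.66, adjusted p = 0.000822). *Nsdhl*, a dehydrogenase that helps to strip methyl groups, read 9.81, 9.89 and 9.95 against 9.33, 9.17 and 9.22 (adjusted p = 0.000782). Its fall of 1.56-fold and that of *Sc5d*, a sterol desaturase, of 1.51-fold both passed the 1.5-fold mark, though that of *Sc5d*, like that of *Sqle*, did not when the values were quantile-normalised again (log2 fold change −0.56 for each). *Sqle* also fell short of it without GDF11 replicate 1 or 3 (both −0.58), and *Sc5d* without vehicle replicate 1 (−0.57) or GDF11 replicate 3 (−0.54). *Sc5d* read 9.80, 9.77 and 9.69 without and 9.24, 9.17 and 9.04 with rGDF11 (log2 fold change −0.60, standard error 0.07, adjusted p = 0.00127). *Tm7sf2*, a sterol reductase (−0.53), *Msmo1*, the methylsterol oxidase whose window holds TCACTCCA (−0.53), and *Hsd17b7*, a ketoreductase (−0.38), fell by less than 1.5-fold. *Tm7sf2* read 6.61, 6.68 and 6.58 against 6.16, 6.01 and 6.10 (adjusted p = 0.00139), and *Hsd17b7* read 9.00, 8.98 and 8.98 against 8.67, 8.56 and 8.60 (adjusted p = 0.00431). In *Hsd17b7* the vehicle arrays nearly coincided, so that a small step still stood clear of the spread. *Msmo1* read 10.85, 10.99 and 10.74 against 10.42, 10.38 and 10.19, and its call was lost by the methods' t-test (adjusted p = 0.0543). *Ebp*, the sterol isomerase, read 9.60, 9.63 and 9.53 against 9.43, 9.39 and 9.47. Its groups did not overlap, yet the step was only −0.16 (95% interval −0.30 to −0.01, adjusted p = 0.149), and it passed when dim probe sets were left out (adjusted p = 0.0432) or an intensity trend was fitted (0.049).

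**Figure D2:**
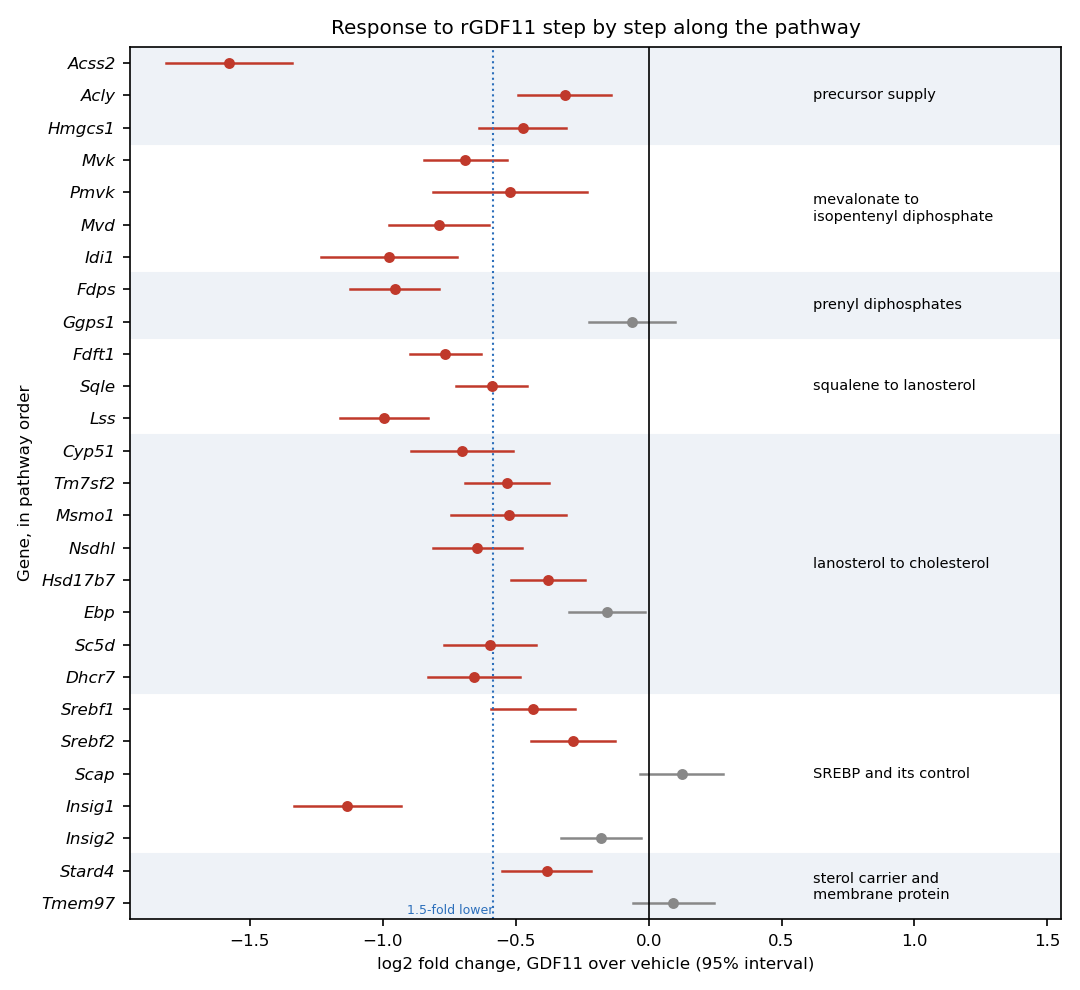
Log2 fold change (GDF11 over vehicle, horizontal axis) with its 95% interval from limma, 3 arrays per group, for the 27 genes in pathway order; red passed at an adjusted p under 0.05, grey did not, and the dotted line marks a 1.5-fold fall. Red points run from −1.58 for *Acss2* to −0.28 for *Srebf2*, and the 5 grey genes are *Ggps1*, *Ebp*, *Scap*, *Insig2* and *Tmem97*.

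The regulators of the pathway did not move alike. *Insig1*, which retains the Scap–SREBP complex in the endoplasmic reticulum and is itself a target gene of SREBP, read 11.03, 11.03 and 11.12 without and 10.10, 9.83 and 9.85 with rGDF11. The groups stood far apart, and the fall was 2.19-fold (log2 fold change −1.13, standard error 0.09, adjusted p = 0.000111), so that *Insig1* and *Acss2* were the only genes among the 27 that were more than 2-fold lower. *Insig2*, its paralogue, which is not driven by SREBP in the same way, read 8.62, 8.56 and 8.54 against 8.32, 8.44 and 8.42. Its groups did not overlap, but the change was −0.18 (95% interval −0.33 to −0.03, adjusted p = 0.112), and it passed when dim probe sets were left out (adjusted p = 0.0312). The change of *Insig1* exceeded that of *Insig2* by −0.95 on the log2 scale (unmoderated standard error 0.13), a description of a pair chosen after its values were seen.

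Both SREBP genes fell modestly. *Srebf1*, whose products favour fatty acid genes, went from 8.56, 8.61 and 8.68 to 8.18, 8.11 and 8.26 (log2 fold change −0.43, standard error 0.07, adjusted p = 0.00415). *Srebf2*, whose product favours the cholesterol genes and whose own window holds TCACCCCA, went from 9.86, 9.89 and 9.97 to 9.65, 9.54 and 9.68 (log2 fold change −0.28, standard error 0.07, adjusted p = 0.0268). In both genes all GDF11 arrays lay below all vehicle arrays. For *Srebf2* the call was lost without vehicle replicate 2 (adjusted p = 0.0679) or 3 (0.094) and without GDF11 replicate 1 (0.0722) or 2 (0.0806). Within arrays *Srebf1* changed by −0.15 more than *Srebf2* (unmoderated standard error 0.02), again a pair described after its values were seen.

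*Scap*, the sterol-sensing escort of SREBP, read 8.67, 8.65 and 8.80 without and 8.80, 8.82 and 8.88 with rGDF11. Its groups touched, and the 95% interval of the log2 fold change ran from −0.03 to 0.28 (0.12, adjusted p = 0.289). Set against *Srebf2* on the same arrays, the change of *Scap* differed by 0.41 (unmoderated standard error 0.05), the last of 4 pairs so described. *Stard4*, a soluble carrier of cholesterol induced when sterols are low, fell by 0.38 on the log2 scale (adjusted p = 0.00976), from 8.66, 8.77 and 8.61 to 8.27, 8.38 and 8.24. *Tmem97*, a membrane protein that binds the cholesterol transporter Npc1, read 11.77, 11.71 and 11.76 against 11.81, 11.79 and 11.93. Through its brighter probe set it was the single gene of the 27 in which every GDF11 array lay above every vehicle array. The log2 fold change was 0.09 (95% interval −0.06 to 0.24, adjusted p = 0.422). The second probe set of *Tmem97* overlapped between groups (0.08, adjusted p = 0.547), and whether either set reads another copy of the sequence was not tested.

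**Figure D3:**
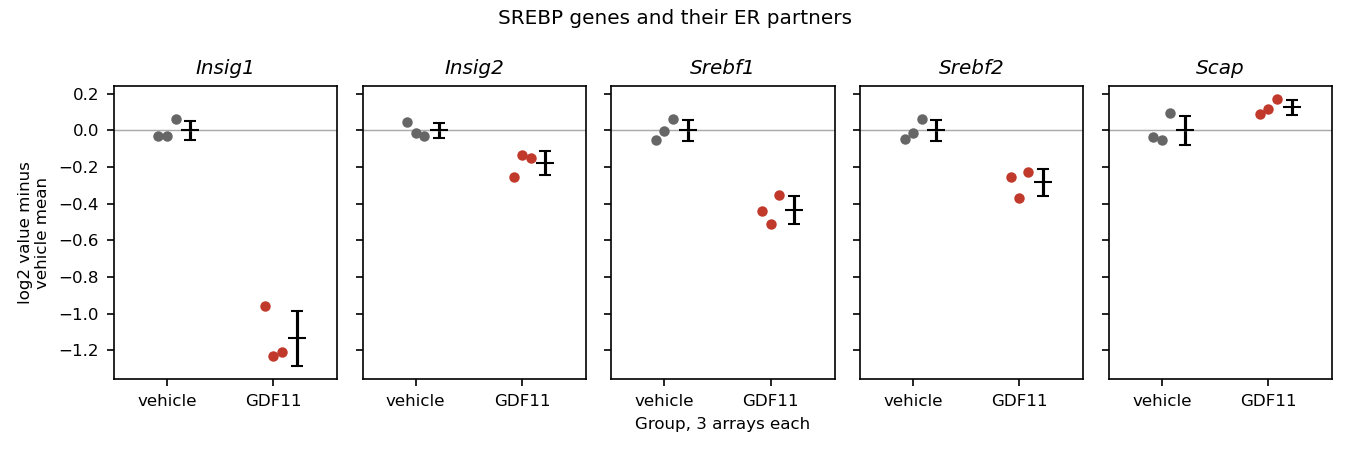
Log2 value minus the vehicle mean of the same gene (vertical axis) on each vehicle array (grey) and GDF11 array (red) for 5 regulators of the pathway, with the mean and SD of 3 arrays in black. *Insig1* drops by 1.13, *Srebf1* by 0.43 and *Srebf2* by 0.28, while *Insig2* (−0.18) and *Scap* (0.12) did not pass the test.

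The response was even across arrays. The mean level over the 27 genes was 9.15, 9.20 and 9.19 on the vehicle arrays and 8.64, 8.61 and 8.61 on the GDF11 arrays. No array departed from its group's mean by more than 0.03 log2 units over these genes. The median SD within a group was 0.076 for the 27 genes beside 0.106 for all genes. All 27 were brighter than the median gene, and the SD over such genes alone was not computed. Of the 22 genes called, 18 were called under each of the 17 alternative settings of the processing, which leaves *Acly*, *Pmvk*, *Srebf2* and *Msmo1* as the exceptions.

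Genes around the pathway were followed through 5 further lists, of which 57 genes had a probe set of their own. Of these, 53 were brighter than the median gene, and among all such genes 16.2% were lower and 12.5% higher. A single call in a list of 8 or 13 genes is not above such shares. The share over all genes at an unadjusted p under 0.05 was not counted. Of 15 genes of fatty acid synthesis and desaturation, which SREBP also drives, 7 fell, 0 rose and 8 did not pass (limma, with 9 lower and 0 higher at an unadjusted p under 0.05, and a median log2 fold change of −0.22). *Scd1*, a desaturase, fell by 3.39 on the log2 scale and its relative *Scd2* by 0.78, while *Slc25a1*, which exports the citrate used by Acly, fell by 0.43 and *Me1*, a source of NADPH, by 0.48. Of 8 genes for the cutting and turnover of SREBP and Insig, *Mbtps1*, the first protease that cuts SREBP, was higher (log2 fold change 0.32, adjusted p = 0.0129) and 7 did not pass, with 0 lower (limma, 1 lower at an unadjusted p under 0.05) and a median of −0.03. Of 13 genes that use prenyl diphosphates for ubiquinone, dolichol or protein prenylation, only *Coq2*, of ubiquinone synthesis, fell (−0.38, adjusted p = 0.00475), 0 rose and 12 did not pass (limma, 1 lower and 1 higher at an unadjusted p under 0.05), with a median of 0.02. The methods' t-test called 15 lower and 2 higher over the 5 lists together, where limma called 20 and 3.

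Of 13 genes of sterol uptake, storage and transport, 6 fell, 0 rose and 7 did not pass (limma, with 7 lower and 0 higher at an unadjusted p under 0.05, and a median log2 fold change of −0.25). Among those that fell were *Scarb1*, a lipoprotein receptor (−0.56), the lysosomal sterol carrier *Npc2* (−0.51), the lysosomal lipase *Lipa* (−0.50) and *Nceh1*, which splits cholesteryl esters (−0.39). Of 8 oxysterol enzymes and LXR genes, 6 fell and 2 rose, with a median of −0.50. Over all genes brighter than the median gene, 16.2% were lower and 12.5% higher. *Ch25h*, which makes an oxysterol known to hold back SREBP cutting, rose from a mean log2 level of 7.13 to 10.33 (log2 fold change 3.20, adjusted p = 1.51e-06), and *Mylip*, an LXR target named after its value was seen, rose by 0.30 (adjusted p = 0.0239). The call for *Mylip* was lost without vehicle replicate 1 (adjusted p = 0.064), 2 (0.0645) or 3 (0.0801), without GDF11 replicate 1 (0.0932) or 3 (0.078), with all probe sets tested (0.0548) and by the methods' t-test (0.0569). The sterol exporter *Abcg1* (log2 fold change −1.16), the phospholipid enzyme *Lpcat3* (−0.60) and the sterol hydroxylase *Cyp27a1* (−0.58) fell, and the call for *Cyp27a1* was lost by the methods' t-test (adjusted p = 0.0602). Whether the levels of *Ch25h* and of the synthesis genes are connected was not tested.

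**Figure D4:**
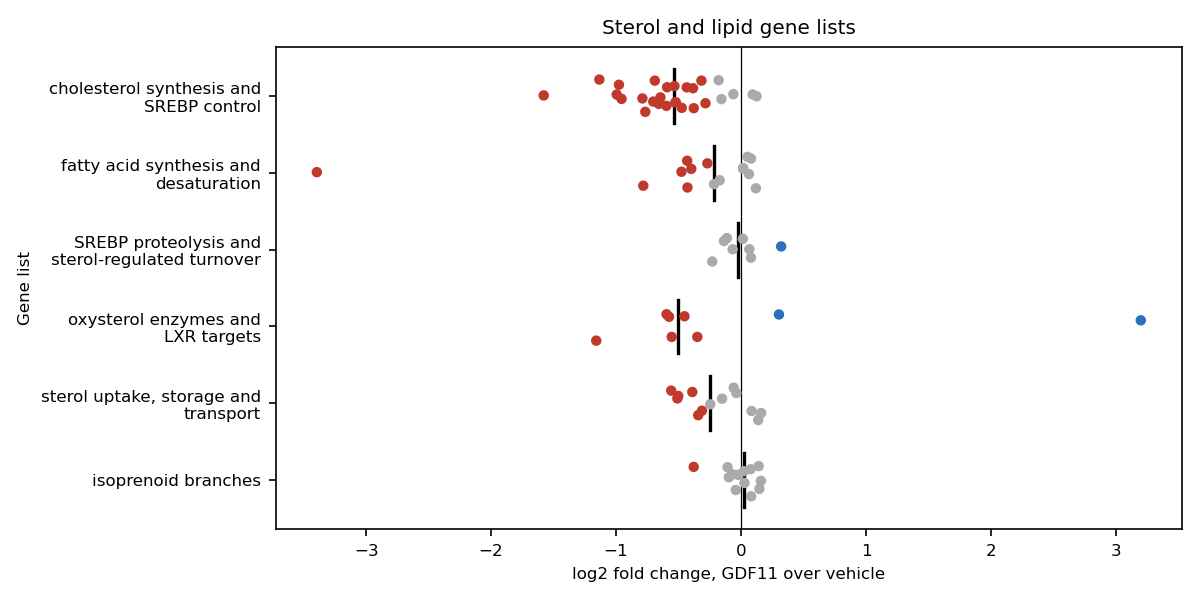
Log2 fold change (GDF11 over vehicle, horizontal axis) of the measured genes of 6 lists, each point being 1 gene over 3 arrays a group; black bars are medians, red and blue points passed at an adjusted p under 0.05 (lower and higher) and grey points did not. The 27 cholesterol synthesis and SREBP genes have a median of −0.53, the fatty acid list spreads from −3.39 (*Scd1*) to 0.12, and the isoprenoid branches have a median of 0.02.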

How the data were processed

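Each of the 6 BMM samples (3 vehicle, 3 GDF11) was hybridised to 1 array (Affymetrix Mouse Gene 1.0 ST). The deposited values are log2 expression per probe set, which the authors made by RMA in Expression Console (version not given in the sources used here), with Transcriptome Analysis Console 3.0 in the submitters' processing notes. RMA corrects background and quantile-normalises all arrays together, which holds the overall distribution equal and narrows changes of dim probe sets. The number of arrays limits the precision. Of 35556 probe sets, 21789 had 1 gene symbol, 1621 several and 12146 none in the platform annotation. The 23410 with a symbol were fitted with limma 3.58.1 in R 4.3.3 (lmFit, eBayes, no covariate, two-sided) and adjusted by Benjamini-Hochberg, and the fit was tested on simulated data. Each gene was read through its brightest single-symbol probe set. The 28 genes and all other lists were chosen with earlier results of these data known. All 28 are named, as are up to 4 called genes of each further list with the largest change, plus *Ch25h* and *Scd1*. Alternatives changed the probe sets, scaling, variance model, test, threshold and arrays used. Promoter windows end at the annotated start, leaving out the 50 bases after it.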

Additional observations from a re-analysis of the deposited data

How the results depend on the processing

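Over 17 alternative settings the number of the 27 genes called lower stayed between 18 (the methods' t-test) and 24 (dim probe sets left out), and the number called higher was 0 in each. With 1 array left out at a time, 19 to 21 were called lower, 0 higher, and the median log2 fold change ran from −0.59 to −0.54. With the replicate block, 21 were called lower. Whether replicates of the same number belong together is not known. Deviations from the group mean correlated at 0.06, 0.33 and −0.00 between same-numbered arrays. Vehicle replicate 1 correlated best with GDF11 replicate 3 (0.27). The highest value was that of a same-numbered pair, and with 3 arrays a group such correlations cannot settle the pairing. Where the fold threshold was raised to 2, the 13 genes lower at the methods' threshold became 2, and they were 12 to 14 with 1 array left out and 11 after quantile normalisation again, where *Sqle* and *Sc5d* dropped below 1.5-fold. Where the adjusted p had to be under 0.01, the 3 further lipid genes called higher became 1, since a stricter threshold admits fewer genes. With 1 array left out, those called higher were 2 to 3 and those called lower 16 to 19. *Acly* kept its call under 9 of the 17 alternatives, *Srebf2* under 10, *Pmvk* under 11 and *Msmo1* under 16. With all probe sets tested, the adjusted p was 0.0577 for *Acly*, 0.0682 for *Pmvk* and 0.0582 for *Srebf2*. *Pmvk* also lost its call under the replicate block (adjusted p = 0.0509), which ended no other call among the 27. Among the 27 genes, the named lipid genes and the markers *Cd79b*, *Pf4* and *S100a8*, no log2 fold change of the probe set used turned its sign under these alternatives. Single small changes such as that of *Ebp* lie near what 3 arrays per group can resolve.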
